A study of Mus musculus with 6 samples.

Results

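The regions described here are DNA segments between genes that were called as accessible in mouse CD4 T cells at both times sampled under Th17 conditions and were not called in naive cells. The assay was ATAC-seq, where a transposase (Tn5) cuts accessible DNA and tags it for sequencing. CD4 T cells of C57BL/6 mice, with no stated genetic change and no stated age, formed 3 groups of 2 libraries each. Naive cells were untreated. The other groups, Th17 48h and Th17 72h, were grown from naive CD4+ T cells for 48 h and 72 h with TGF-β (0.1 ng/mL) and IL-6 (20 ng/mL) with anti-CD3ε (0.25 μg/mL) and anti-CD28 (1 μg/mL) in plates coated with hamster IgG, so effects of activation and of the cytokines cannot be told apart. One peak list per group was analysed, so no difference between groups has a replicate check and no p-value is given.

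The peaks of the 3 lists were joined into 81315 regions wherever they shared at least 1 bp. A stable gain was a region with a 48 h peak and a 72 h peak and no naive peak, and it lay between genes when its middle was outside every protein-coding gene body of RefSeq GRCm38 and over 1 kb from the ends of those genes. The members were thus chosen by the presence and absence of called peaks, the measured values, and by position. The rule found 4325 stable gains between genes, which were 15.1% of the 28574 regions between genes. Over all places there were 10674 stable gains, 13.1% of all regions. Stable gains were 14.6% of the regions inside genes and 6.09% of those near gene ends. These shares follow from the rule and describe the lists only. A missing naive peak means that no peak was listed, not that the chromatin was closed.

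DNA between genes holds many enhancers, which are bound by transcription factors and act on promoters over distance. In T cells, signals through the T cell receptor bring AP-1 factors to such sites. BATF, an AP-1 family member, pairs with JUN proteins and acts together with IRF4 early in Th17 cells. STAT3 is activated by IL-6, and ROR elements are bound by nuclear receptors of that family. A distal region need not act on its nearest gene, so the nearest gene is used below only as an address.

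Sequence could be read where a stable gain overlapped a promoter window of the RefSeq table (GRCm38.p6), which runs from 250 bases before to 50 bases after a transcript start. Since protein-coding gene ends are excluded by the rule, these are mostly starts of non-coding transcripts. Of the 4325 stable gains, 52 touched such a window and 37 shared at least 150 bp with one, over 40 windows. The stretches below are the parts of the windows that lie inside the stable gain, 5′ to 3′ on the strand of the transcript. They are shown because the AP-1 word was frequent in these windows. Capitals mark matches, on either strand, to the words TGANTCA (AP-1), TTCNNNGAA (STAT), TAGGTCA (ROR), TGTGGTT (RUNX), AGGAAGT (ETS), TGGAAA (NFAT) and CTTTGAT (TCF), where N is any base. The first 5 are the stretches with the highest 72 h scores among those with an AP-1 match.
Gm33398: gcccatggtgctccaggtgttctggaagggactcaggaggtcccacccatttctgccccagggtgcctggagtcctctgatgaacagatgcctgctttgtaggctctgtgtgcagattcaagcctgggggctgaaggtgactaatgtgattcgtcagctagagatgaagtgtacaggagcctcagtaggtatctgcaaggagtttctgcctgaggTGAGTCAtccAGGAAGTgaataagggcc
Gm38326: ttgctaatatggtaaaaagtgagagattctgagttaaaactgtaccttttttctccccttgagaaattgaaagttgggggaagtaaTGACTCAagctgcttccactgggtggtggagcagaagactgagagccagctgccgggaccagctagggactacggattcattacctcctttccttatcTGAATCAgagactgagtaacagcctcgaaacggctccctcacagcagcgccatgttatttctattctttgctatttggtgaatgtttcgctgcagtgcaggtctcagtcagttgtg
Gm41048: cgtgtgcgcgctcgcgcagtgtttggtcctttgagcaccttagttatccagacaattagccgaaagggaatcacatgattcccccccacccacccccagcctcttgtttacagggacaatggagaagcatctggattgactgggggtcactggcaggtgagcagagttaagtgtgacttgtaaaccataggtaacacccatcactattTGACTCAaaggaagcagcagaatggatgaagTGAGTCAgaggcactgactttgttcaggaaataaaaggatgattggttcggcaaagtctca
Gm51489: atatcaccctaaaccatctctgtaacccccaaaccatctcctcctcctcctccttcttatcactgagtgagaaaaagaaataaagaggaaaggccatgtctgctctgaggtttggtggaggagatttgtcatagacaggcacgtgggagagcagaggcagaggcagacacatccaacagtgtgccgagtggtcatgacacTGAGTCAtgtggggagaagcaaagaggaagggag
Gm12589: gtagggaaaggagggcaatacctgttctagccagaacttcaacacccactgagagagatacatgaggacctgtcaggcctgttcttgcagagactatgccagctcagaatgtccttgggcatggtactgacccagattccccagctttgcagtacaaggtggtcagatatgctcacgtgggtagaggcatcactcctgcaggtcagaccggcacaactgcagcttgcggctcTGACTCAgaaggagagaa

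The Gm33398 stretch is chr7:129764621-129764863 on the minus strand, in a stable gain scored 174 at 48 h and 350 at 72 h that lay 128.7 kb from Wdr11. Its AP-1 match and its ETS match are 3 bases apart. The Gm38326 stretch is chr3:60788111-60788410 on the plus strand (scores 160 and 236), and the Gm41048 stretch is chr13:104914505-104914804 on the plus strand (114 and 220). Each of these holds 2 AP-1 matches. The Gm51489 stretch is chr7:75822354-75822587 on the plus strand (85 and 181), and the Gm12589 stretch is chr11:121777549-121777798 on the plus strand (130 and 162). Each holds 1 AP-1 match.

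The next stretch held the most matches of the 37, with 2 AP-1, 1 STAT, 1 ROR and 1 NFAT match. It is chr16:38017073-38017372 on the plus strand, at the start of the non-coding gene 4930542C21Rik, in a stable gain scored 105 at 48 h and 134 at 72 h.
4930542C21Rik: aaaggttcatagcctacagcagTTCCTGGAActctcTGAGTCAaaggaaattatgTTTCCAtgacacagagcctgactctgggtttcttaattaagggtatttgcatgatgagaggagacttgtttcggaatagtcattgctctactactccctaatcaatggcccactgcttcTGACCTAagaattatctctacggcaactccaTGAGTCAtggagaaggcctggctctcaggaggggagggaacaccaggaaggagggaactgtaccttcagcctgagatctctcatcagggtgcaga

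For contrast, the 2 stretches with the highest 72 h scores that lack the AP-1 word hold no match to any of the 7 words. They are 183 and 181 bases of the stable gains chr14:72807212-72807720 and chr3:127860657-127861248. The rest of these stable gains was not read and may hold matches. Gm35218 is chr14:72807538-72807720 on the minus strand (scores 188 and 314), and Gm35585 is chr3:127861068-127861248 on the plus strand (167 and 282).
Gm35218: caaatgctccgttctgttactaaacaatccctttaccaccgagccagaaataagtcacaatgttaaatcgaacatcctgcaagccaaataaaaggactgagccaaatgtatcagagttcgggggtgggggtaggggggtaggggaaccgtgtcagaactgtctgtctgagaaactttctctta
Gm35585: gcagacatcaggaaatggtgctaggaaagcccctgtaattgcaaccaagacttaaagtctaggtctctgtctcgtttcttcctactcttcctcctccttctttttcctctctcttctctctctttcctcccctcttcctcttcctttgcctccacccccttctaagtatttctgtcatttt

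The AP-1 word was found in a larger share of the windows in stable gains than in the windows of constant or naive-only regions, with intervals that did not overlap. It was present in 19 of the 40 windows in stable gains (47.5%, exact Clopper-Pearson 95% interval 31.5 to 63.9%), in 10 of 60 windows in naive-only regions between genes (16.7%, 8.29 to 28.5%) and in 31 of 277 windows in constant regions between genes, which had a peak in all 3 lists (11.2%, 7.73 to 15.5%). Among all 32817 RefSeq promoter windows of 300 bp, 7.81% held it. Windows in regions called at 72 h only held it in 7 of 22 cases (31.8%, 13.9 to 54.9%), an interval that overlaps that of the stable gains. The form with C or G in the middle, the usual AP-1 site, accounted for 18 of the 19 windows, and 5.2% of all windows held that form. A reordered control word, TCANTGA, was found in 6 of the 40 windows (15%, 5.71 to 29.8%), in 1 of 60 naive-only windows (1.67%, 0.0422 to 8.94%), in 23 of 277 constant windows (8.3%, 5.34 to 12.2%) and in 7.15% of all windows. The control word was thus also more frequent in stable gains than in naive-only windows, with intervals that overlap. Within the 40 windows, 1 AP-1 match overlapped a match of the control word, and no other words overlapped. Each window was searched over its full 300 bp, so a counted match can lie outside the region that it overlaps. Some windows share a region, as the 40, 60 and 277 windows lay in 37 stable gains, 58 naive-only and 239 constant regions. The intervals treat windows as independent. All windows sit at transcript starts, and those in stable gains cover a small, particular subset of the stable gains.

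For the other words, the intervals of stable gains and of the other classes overlapped. The ETS word was found in 11 of 40 windows in stable gains (27.5%, 14.6 to 43.9%), in 21 of 60 naive-only windows (35%, 23.1 to 48.4%) and in 31 of 277 constant windows (11.2%), against 9.35% of all windows, a share below the interval of the stable gains. As these are counts over whole windows, they include matches outside the stable gains. The RUNX word was found in 1 of 40 windows in stable gains (2.5%, 0.0633 to 13.2%) and in 12 of 60 naive-only windows (20%, 10.8 to 32.3%), against 5.27% of all windows. STAT (6 of 40, 15%, 5.71 to 29.8%) and NFAT (10 of 40, 25%, 12.7 to 41.2%) had intervals that held the shares over all windows, 8.29% and 21.4%. So did ROR, with 1 of 40 windows against 2.61%, and TCF, with 2 of 40 against 3.73%. Median GC content was 50.3% in the windows of stable gains, 49.2% in naive-only windows and 55.3% in constant windows, and the part of base composition in these shares was not tested. A match is a string of letters and does not show that a factor binds.

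**Figure D1:**
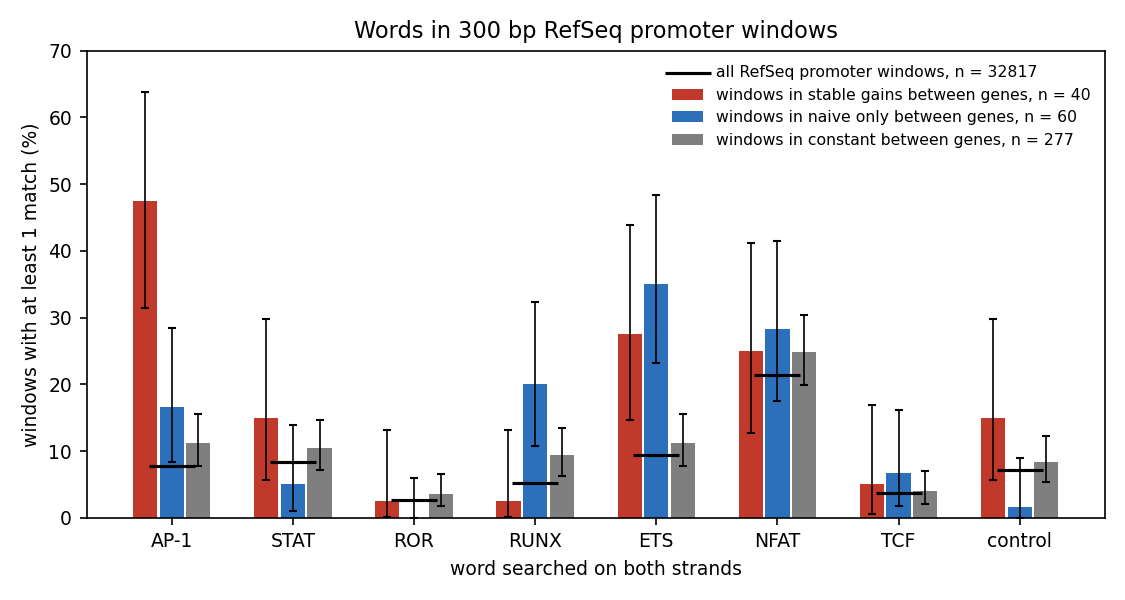
Share of 300 bp RefSeq promoter windows (vertical axis, %) that hold each word (horizontal axis), for windows with at least 150 bp in a stable gain, a naive-only region or a constant region between genes; bars are shares, error bars are exact 95% intervals and black dashes are the share over all 32817 windows. The AP-1 word stands at 47.5% in windows of stable gains and at 16.7% and 11.2% in the other 2 classes.

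One stable gain covered a microRNA gene. The hairpin of Mir3093 lies at chr3:88215171-88215257 on the plus strand, inside the stable gain chr3:88214996-88215350, which scored 46 at 48 h and 59 at 72 h and lay 27.5 kb from Rhbg. The mature sequences of RefSeq follow, with the seed (bases 2 to 8) in capitals. Accessibility over the hairpin says nothing of its expression.
mmu-miR-3093-5p: cGCACCCCgcggagcucacacu
mmu-miR-3093-3p: uGUGGACAccgugggagguugg

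In the deposited lists each 48 h and 72 h peak has a whole-number score, the authors' own value, whose scale no header states. Scores describe peaks within 1 list. Stable gains between genes had a median 48 h score of 68 (order-statistic 95% interval 66 to 70, lowest 30, highest 322) and a median 72 h score of 94 (91 to 97, lowest 30, highest 576). In the whole lists the medians were 69 and 76. The typical stable gain thus stood at the 48.8th percentile of the 48 h list and at the 59.9th percentile of the 72 h list. Few were among the strongest peaks, with 3.95% above the 90th percentile of the 48 h list and 7.42% above that of the 72 h list.

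Compared with constant regions between genes, the stable gains had narrower 72 h peaks. Their median scores were slightly lower, with intervals that met at 48 h and overlapped at 72 h. The constant regions had median scores of 72 (70 to 74) at 48 h and 96 (93 to 98) at 72 h, and median 72 h peak widths of 288 bp (282 to 295) against 262 bp (258 to 267) in stable gains. Regions called at 72 h only had a median score of 52 and a width of 159 bp, and regions called at 48 h only a median score of 44 and a width of 139.5 bp. Stable gains inside genes had median scores of 64 and 91, close to those between genes, and stable gains near gene ends were lower, at 55 and 75. Because a stable gain had to be called in both lists, its scores are partly set by the rule.

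At the top of the score range, constant regions and stable gains made up nearly the whole list between genes. All regions between genes with a 72 h peak comprised 4853 constant regions, 4325 stable gains, 5872 called at 72 h only and 2080 with naive and 72 h peaks. Of the 100 with the highest 72 h score, 71 were constant and 29 were stable gains. Of the top 1000, 536 were constant, 437 were stable gains, 23 had a 72 h peak alone, and 4 had naive and 72 h peaks. In the 48 h list the top 100 comprised 80 constant regions and 20 stable gains, and the top 1000 held 623 and 375. All regions between genes with a 48 h peak comprised 4853 constant regions, 4325 stable gains, 1512 called at 48 h only and 795 with naive and 48 h peaks. When all regions between genes with a 72 h peak were put in 4 equal bins by 72 h score, stable gains were 13.2% of the lowest bin and 41.0% of the highest. In the same bins by 48 h score they were 31.5% and 43.5%. Since a stable gain had to be called in both lists, its place in these rankings is partly set by the rule.

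The 48 h and 72 h peaks of a stable gain share bases by construction, since peaks were joined only on overlap. Of the 4325, 4202 held 1 peak of each list. The middles of the paired peaks were a median of 33 bp apart, and in 36.5% (35 to 37.9%) the 48 h peak lay entirely within the 72 h peak. The 72 h peak was wider in 62.9% (61.5 to 64.4%), by a median of 30 bp over all pairs. In constant regions between genes the 72 h peak was wider in 66.0% (64.6 to 67.3%), a slightly larger share than in stable gains. Across the stable gains, 48 h and 72 h scores had a Spearman correlation of 0.52 (n = 4325), and across constant regions between genes 0.64 (n = 4853). These points share the 2 lists, whose depth is unknown.

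**Figure D2:**
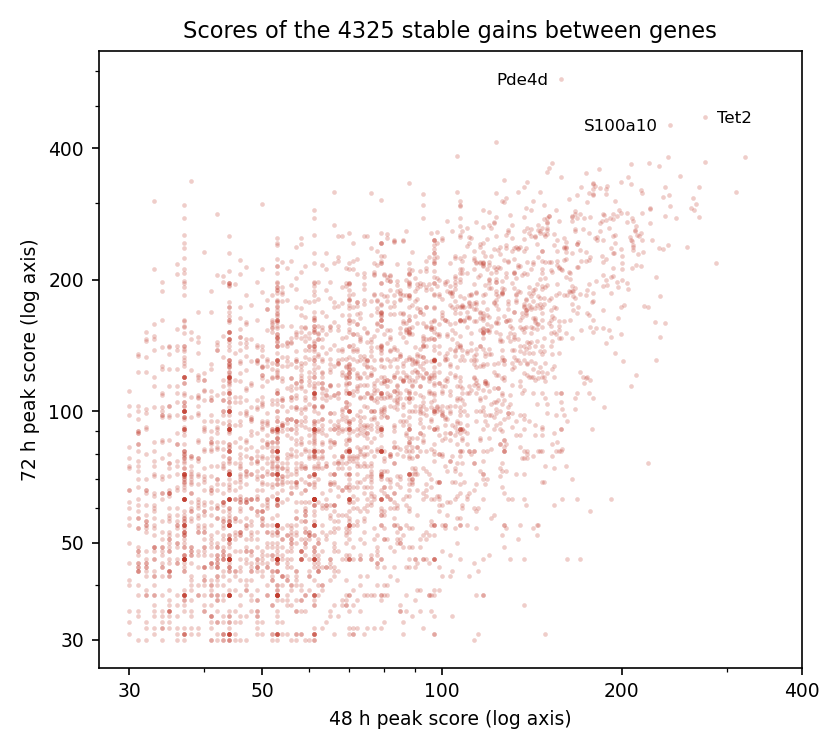
48 h peak score (horizontal, log axis) against 72 h peak score (vertical, log axis), 1 point for each of the 4325 stable gains between genes; the 3 with the highest 72 h score are labelled by their nearest gene. Regions with a high 48 h score mostly had a high 72 h score. The Pde4d region scored 158 at 48 h and 576 at 72 h, the 87.5th and 99.97th percentiles of those lists.

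The strongest stable gains lay at genes of varied function. The region chr13:108603532-108603839, 50.3 kb from Pde4d, which encodes a cAMP phosphodiesterase, scored 158 at 48 h and 576 at 72 h. Next came chr3:133436317-133437470, 26.2 kb from Tet2, which encodes an enzyme that oxidises methylcytosine, with 275 and 472, and chr3:93572074-93572776, 7.4 kb from S100a10, with 241 and 452. A region 9.6 kb from Pbp2 scored 123 and 413. Regions near Fh1, the fumarate hydratase gene (106 and 383), Sugct (322 and 381), Esf1 (239 and 381), Prss23 (276 and 372) and Pdlim5 (153 and 370) followed, and the tenth was a second Tet2 region, 212.9 kb upstream of the gene (222 and 369). None had a naive peak within 5 kb, and their distance to the nearest naive peak ran from 5746 bp at Pde4d to 143478 bp at the distal Tet2 region.

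At 48 h the highest scores belonged partly to other regions. The Sugct region led with 322, followed by regions near Npnt (311 at 48 h and 318 at 72 h) and Ezh2, which encodes the H3K27 methyltransferase of the Polycomb complex (288 and 218), then Prss23 and Tet2. The widest stable gains were 1242 bp near Mdfic, 1179 bp near Tmem270, 1154 bp near Tet2, 1130 bp near Med21 and 1113 bp near Nucb2. These are widths of the merged region, and the 72 h peaks were 330, 655, 587, 1130 and 1113 bp wide in the same order. The 72 h scores of these regions ran from 90 to 472 and did not follow the order of the merged widths.

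Stable gains were farther from genes than constant regions and slightly farther, by the median, than naive-only regions. The median gap to the nearest protein-coding gene was 26255 bp for stable gains (95% interval 24833 to 27687), 15791 bp for constant regions (14957 to 16600) and 23287 bp for naive-only regions (22399 to 24223). Regions called at 72 h only had a median of 25711.5 bp (24229 to 27024), which overlaps that of the stable gains. Within 10 kb of a gene lay 26.2% of the stable gains (24.9 to 27.5%), 36.4% of the constant regions (35.1 to 37.8%) and 29.4% of the naive-only regions (28.4 to 30.3%). From 100 to 500 kb lay 16.6% of the stable gains, 16.5% of the naive-only regions and 8.9% of the constant regions. At 500 kb or more from any protein-coding gene lay 66 stable gains (1.53%, 1.18 to 1.94%), 2.04% of the naive-only regions (1.76 to 2.35%) and 0.536% of the constant regions. The 72 h score hardly varied with this distance, with medians of 91 under 10 kb, 93 from 10 to 50 kb, 98 from 50 to 100 kb, 98.5 from 100 to 500 kb and 82 beyond. Where the RefSeq promoter table gives the strand of the nearest gene (3333 stable gains), 55.4% lay upstream (53.7 to 57.1%), and the shares were 53.4% for constant and 55.9% for naive-only regions.

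**Figure D3:**
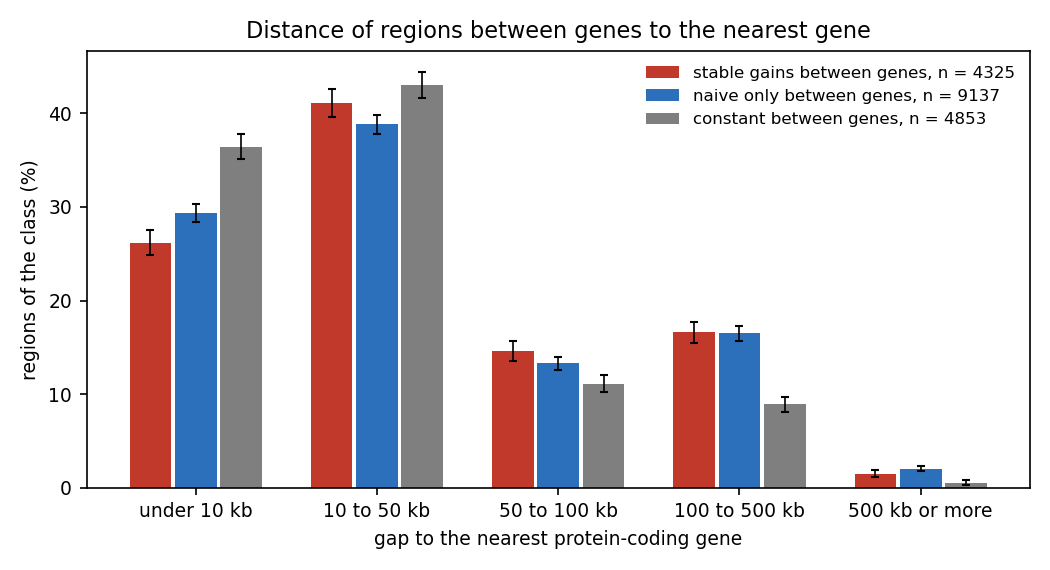
Share of stable gains, naive-only regions and constant regions between genes (vertical axis, %) by the gap to the nearest protein-coding gene (horizontal axis, 5 bins); error bars are exact 95% intervals. Under 10 kb the shares are 26.2%, 29.4% and 36.4%, and from 100 to 500 kb the stable gains stand at 16.6% and the constant regions at 8.9%.

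At the 1 kb limit of the rule, the 20 stable gains just inside it, 1011 to 1091 bp from a gene end, had median scores of 61.5 at 48 h and 85.5 at 72 h. The 20 just outside it, 926 to 989 bp from a gene end, had 65.5 and 60.5. Non-coding genes were not used by the rule, and the middle of 893 stable gains (20.6%, 19.4 to 21.9%) lay inside one, against 25.4% of constant and 22.7% of naive-only regions between genes. Within 1 kb of an end of a non-coding gene lay 7.54% of the stable gains (6.77 to 8.36%), 17.7% of the constant regions (16.7 to 18.8%) and 10.5% of the naive-only regions (9.84 to 11.1%). The non-coding genes with the most stable gains were Gm31718 with 7 and Gm12610, Gm32543 and Pvt1 with 6 each.

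By chromosome, stable gains made up 10.8% of the regions between genes on chromosome 17 (9.14 to 12.6%), 11.0% on chromosome X (8.83 to 13.6%) and 13.7 to 17.1% on the other chromosomes from 1 to 19. Naive-only regions, 32% of all regions between genes, were 39.1% on chromosome 17 and 44.3% on chromosome X, the highest shares among the autosomes and X. No stable gain between genes lay on chromosome Y, where 12 regions between genes were counted.

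Neighbours of stable gains belonged to several classes, most often to the regions called at 72 h only, which lay within 10 kb of 32.1% of them (30.7 to 33.6%). Another stable gain, in any place, lay within 10 kb of 29.9% of them (28.6 to 31.3%), a naive-only region within 10 kb of 27.2% (25.9 to 28.5%) and a constant region within 10 kb of 27.4% (26.1 to 28.8%), while the lists held 14876 regions called at 72 h only, 10674 stable gains, 23435 naive-only and 20812 constant regions in all. For naive-only regions between genes the shares were 16.1% with a stable gain and 55.1% with another naive-only region. The nearest naive peak of a stable gain was a median of 11792 bp away, and 9.71% of the stable gains (8.84 to 10.6%) had one within 1 kb. The 3 nearest, at Akap11, Cdc14a and Cog6, lay 6, 12 and 15 bp from a naive peak, so an absent overlap there separates adjoining peaks. The nearest gene held a further stable gain in its body for 32.1% of the stable gains (30.7 to 33.6%), for 26.9% of the constant regions and for 29.1% of the naive-only regions.

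When neighbours at most 20 kb apart were joined, 1653 stable gains (38.2%, 36.8 to 39.7%) fell into 687 chains, of which 54 had 4 or more members. For naive-only regions, which are more numerous, 63.5% fell into chains, and for constant regions 42.7%. The longest chain held 10 stable gains over 51.5 kb on chromosome 5 (53394645 to 53446101), between Smim20 and Rbpj, the gene of the DNA-binding factor of Notch signalling. Its 72 h scores ran from 60 to 241, and no naive-only and no constant region lay within it. The second chain, 8 stable gains over 64.8 kb on chromosome 15 (62222765 to 62287566), lay 232 to 297 kb from Myc with 72 h scores of 75 to 198, and no region called in naive cells only, in all 3 lists, at 48 h only or at 72 h only lay within it.

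The chains of 6 or 7 members each contained naive-only regions. A chain of 7 near Akap11 contained 3 naive-only regions, a chain of 6 near Cd47, which encodes a receptor that restrains phagocytes, contained 1, and a chain of 6 near Chd7, a chromatin remodeller gene, contained 4. Chains of 6 near Icos and Tomm20 contained 2 and 3. Of the 12 chains of 5 members, 10 contained no naive-only region. The one with the highest summed 72 h score, between Cpox and Gpr15, a homing receptor gene of gut T cells, held 5 stable gains over 24.9 kb with 72 h scores of 103 to 236 and no naive-only region.

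Counted by nearest gene, stable gains between genes touched 2619 protein-coding genes, 1759 of them with a single one. A group of 100 genes had 5 or more and held 693 stable gains. Myc, the growth factor-induced transcription factor gene in a gene desert, had the most, with 29 of the 77 regions between genes that lay nearest to it. These stood 8.4 to 849 kb away, with 72 h scores from 39 to 200 (median 81), and 6 lay inside the non-coding gene Pvt1. The same stretch held 20 naive-only regions, 13 constant regions and 9 called at 72 h only.

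Klf6, a zinc finger factor gene, was nearest to 22 stable gains, 11 on each side, among 60 regions, of which 12 were naive only and 4 constant. Cited2, which encodes a partner of the coactivators CBP and p300, was nearest to 19 among 42 regions, with 18 of them upstream, 4 naive-only and 2 constant regions. The 5 stable gains farthest from any gene all lay upstream of Cited2, 1008 to 1224 kb away. Their 72 h scores were 197 at 1008 kb, 72 at 1100 kb, 162 at 1133 kb, 91 at 1215 kb and 81 at 1224 kb, and the nearest naive peak was 553566 to 769018 bp away.

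Dusp4, a MAP kinase phosphatase gene, was nearest to 14 stable gains among 31 regions. Cdc73, which encodes a subunit of the Paf1 transcription elongation complex, had 12 among 23 regions, all downstream, and 0 naive-only and 0 constant regions. Id2, an inhibitor of E proteins, had 12, all upstream, beside 14 naive-only regions. Ets1 and Gata3, both T cell transcription factor genes, had 11 each beside 11 and 17 naive-only regions, and Sugct had 11 beside 1. Icos, Tbl1xr1 and Tomm20 had 10 each beside 14, 16 and 4 naive-only regions. The loci thus differed in what accompanied the gains. Of the 100 genes with 5 or more stable gains, 34 had more naive-only regions than stable gains, and 14 were nearest to no naive-only region between genes. Those 14 included Tet2 and Rbpj with 8 stable gains each, Il10 and Vav3 with 6 each, and Maf, Cdkn2b and Gramd1b with 5 each. Regions inside genes are left out of these counts, and naive-only regions did lie inside the Tet2 gene body.

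**Figure D4:**
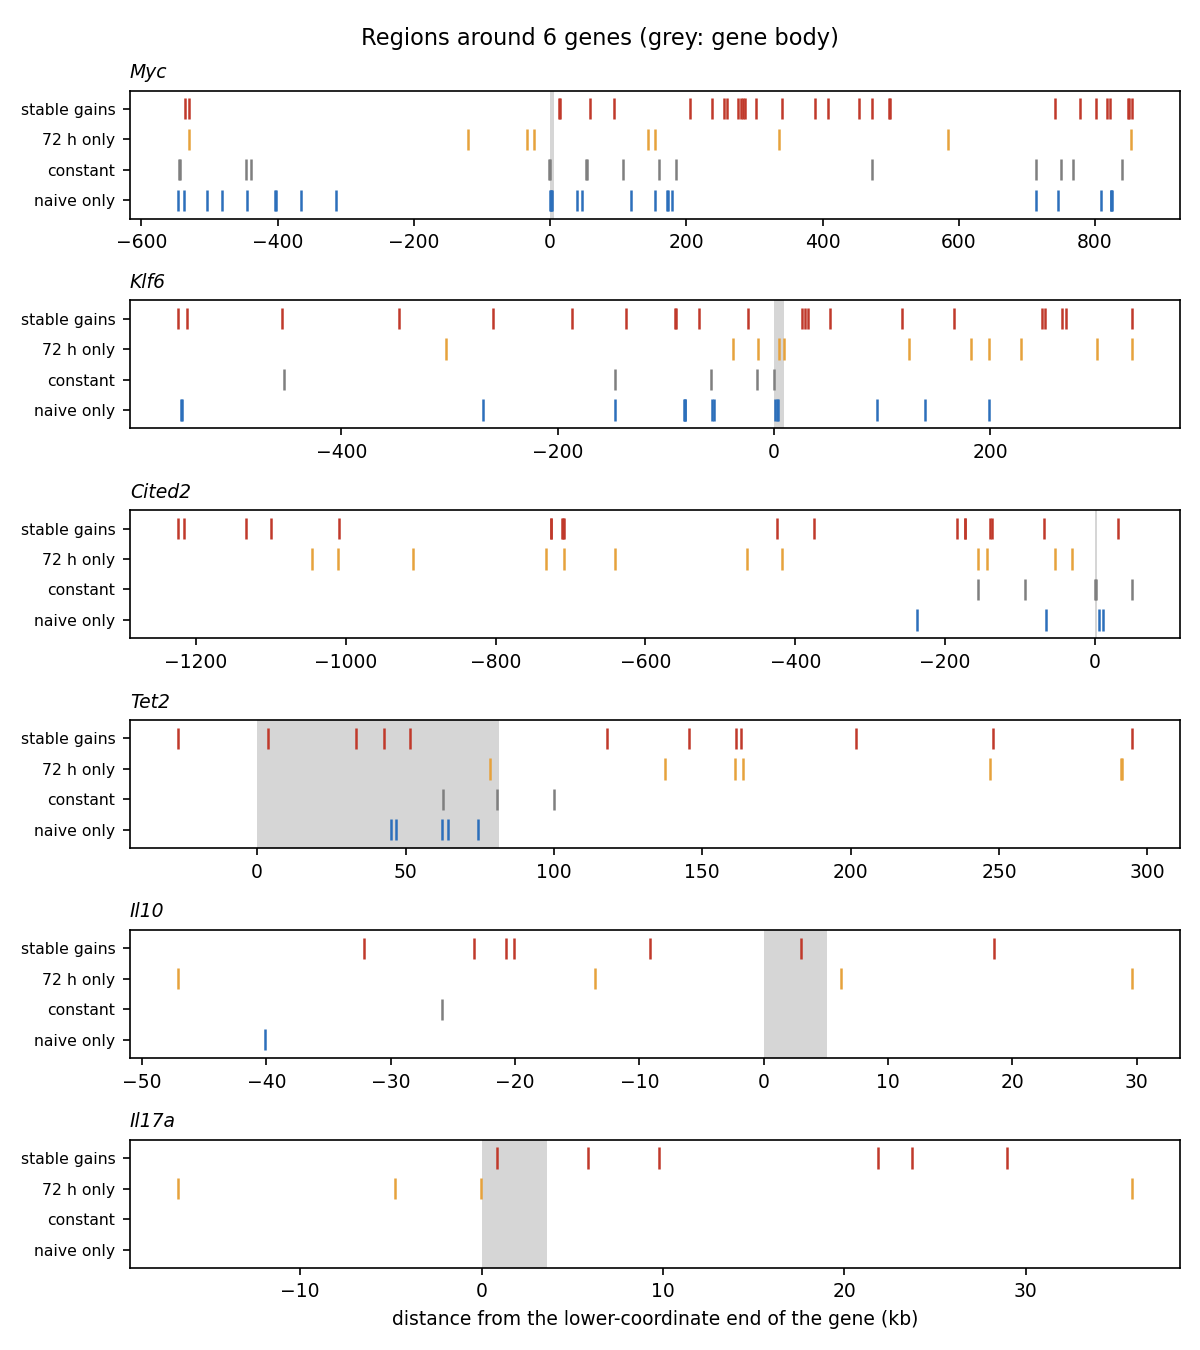
Positions of regions around Myc, Klf6, Cited2, Tet2, Il10 and Il17a, as distance in kb from the lower-coordinate end of the gene (horizontal axis); each tick is 1 region, inside or outside genes and whatever its nearest gene, rows are classes, grey is the gene body, and classes called at 48 h only, or in naive cells and 1 of the Th17 lists, are not drawn. The Il17a panel holds no naive-only and no constant region, and the Myc panel holds stable gains, constant and naive-only regions together.

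The gene lists used next were chosen with earlier results of these data known, and their counts are descriptions. Among the regions between genes whose nearest gene was one of 18 Th17 lineage genes, 38 of 109 were stable gains (34.9%, 26 to 44.6%), against 15.1% of all regions between genes. Of these 109 regions, 16 were naive only (14.7%), against 32% of all. A second list of 24 Th17 cofactor and target genes had 60 of 213 (28.2%, 22.2 to 34.7%), and 18 T cell activation genes had 71 of 277 (25.6%, 20.6 to 31.2%), of which Myc alone gave 29. For 18 genes known from naive or quiescent T cells the count was 33 of 362 (9.12%, 6.36 to 12.6%), with 161 naive-only regions (44.5%).

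The other 11 lists had intervals that included 15.1%. Th1 genes had 18 of 76 (23.7%, 14.7 to 34.8%), Th2 genes 16 of 74 (21.6%, 12.9 to 32.7%), Tfh genes 17 of 111, the BATF, IRF and AP-1 factors 19 of 115, the IL-6 and STAT3 pathway 6 of 59 and the TGF-beta and regulatory T cell genes 10 of 77. Markers of other cells had 2 of 10 for B cells (20%, 2.52 to 55.6%), 5 of 28 for myeloid cells (17.9%, 6.06 to 36.9%) and 2 of 29 for CD8 and NK cells (6.9%, 0.846 to 22.8%). The genes of unrelated tissues had 3 of 14 (21.4%, 4.66 to 50.8%) and housekeeping genes 2 of 20 (10%, 1.23 to 31.7%). These lists are too small to place above or below the 15.1%. At the marker genes themselves, counted with 10 kb on each side, Ms4a1, Csf1r, Lyz2, Adgre1 and Ncr1 had 0 regions in each list. Other markers of those cells were not at 0: in the naive, 48 h and 72 h lists, Cd79a had 5, 3 and 4 regions, Pax5 1, 3 and 3, Itgam 7, 1 and 1, Cd8a 1, 2 and 2, Cd8b1 3, 2 and 2, and Klrb1c 2, 1 and 0. Cd3e had 7, 5 and 4 regions in the naive, 48 h and 72 h lists, and Cd4 had 5, 6 and 6, so markers of T cells were present throughout. The part of other cell types in the stable gains was not tested.

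**Figure D5:**
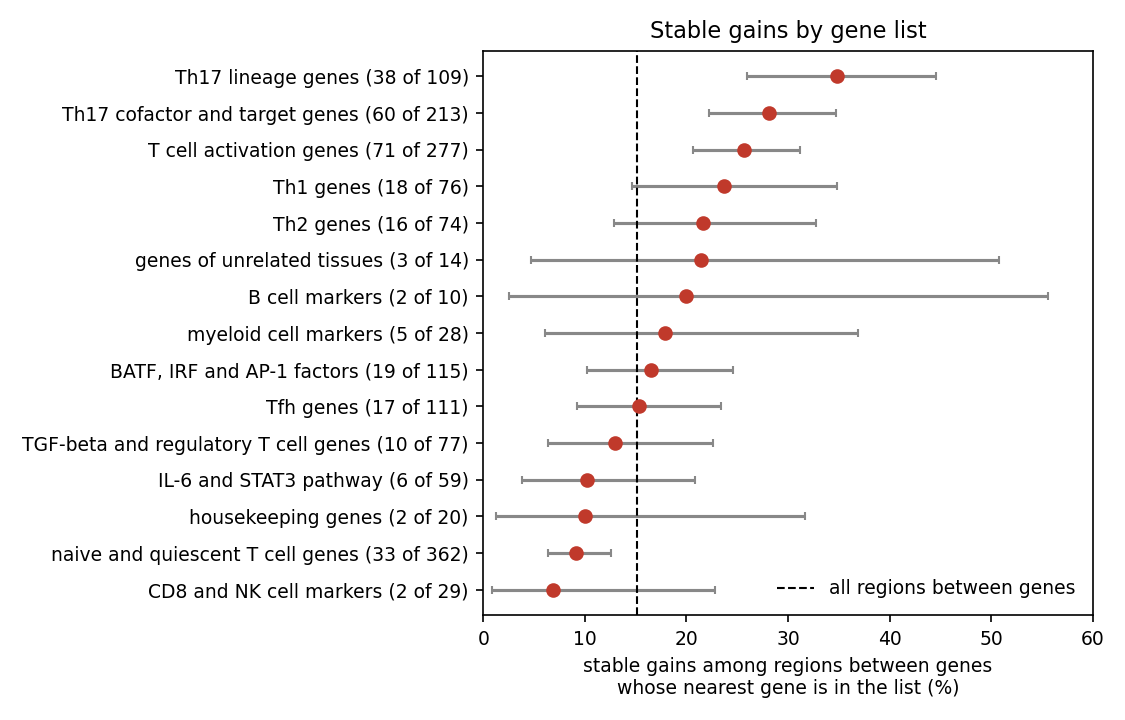
Share of regions between genes that are stable gains (horizontal axis, %), for regions whose nearest gene belongs to each of 15 lists (counts in the labels); points are shares, bars are exact 95% intervals and the dashed line is the 15.1% over all regions between genes. Th17 lineage genes stand highest at 34.9%, and the naive and quiescent list, at 9.12%, has an interval wholly below the line.

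The cytokine genes Il17a and Il17f, which encode IL-17A and IL-17F, lay beside 6 stable gains. Between them, on chromosome 1 from 20736587 to 20760207, lay a chain of 5 stable gains over 23.6 kb with no region of another class inside it. The 2 regions of lowest 72 h score were chr1:20752658-20752843, 18.2 kb from Il17a, with 43 at 48 h and 47 at 72 h, and chr1:20736587-20736927, 2.1 kb downstream of Il17a, with 59 and 102. A region 5.9 kb downstream of Il17a, chr1:20740424-20740917, scored 166 and 183, and chr1:20754485-20754745, 20.0 kb downstream, scored 92 and 209. The strongest, chr1:20759517-20760207, lay nearer to Il17f, 16.9 kb downstream of it, and scored 209 and 273. A sixth region, 6.2 kb upstream of Il17f, scored 118 and 194. The nearest naive peaks were 27825 to 82678 bp away.

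Other Th17 factors had stable gains at longer range. Maf, which encodes the factor c-MAF, had 5 regions 20.0 to 84.6 kb away with 72 h scores of 275, 159, 117, 113 and 72. Between genes it was nearest to 0 naive-only and 0 constant regions. Ahr, the aryl hydrocarbon receptor gene, had 7 at 18.1 to 182.4 kb with 72 h scores from 50 to 238, beside 4 naive-only regions. Hif1a, a regulator of glycolysis, had 4 at 5.3 to 25.9 kb, with weaker 72 h scores of 37, 52, 65 and 94. Irf4 had 2, with 72 h scores of 66 and 98, and Batf had 1, 1.8 kb downstream, with 60 at 48 h and 141 at 72 h.

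Among the cytokine and chemokine genes of the list, Il10 had 6 stable gains at 9.0 to 32.1 kb, 5 of them in 1 chain, with 72 h scores of 43, 50, 67, 74, 171 and 178. Il21 had 2 weak ones, with 65 and 60 at 48 h and 53 and 43 at 72 h. Ccl20, the ligand of CCR6, had 1 at 4.2 kb, with 39 and 61. Of the receptor genes, Ccr6 had 2, at 1.1 and 9.0 kb, with 85 and 84 at 48 h and 54 and 83 at 72 h. Il1r1 had 2, with scores of 107 and 117 at 48 h and 72 and 38 at 72 h. Rora, Il23r, Il22, Il17re and Il12rb1 were nearest gene to none. The scores of Il21, Ccl20, Ccr6 and Il1r1 at 72 h lay below the median of 94 for stable gains between genes.

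In the second Th17 list, Tet2 stood out by score. Its 8 stable gains had a median 72 h score of 182.5, with values of 472, 369, 244, 196, 169, 125, 83 and 33, and 7 of the 8 lay upstream of the gene at 36.5 to 212.9 kb. Gpr65, an acid-sensing receptor gene, had 1 at 6.2 kb with 176 at 48 h and 316 at 72 h. Egln3, a prolyl hydroxylase that marks HIF proteins, had 5 with 72 h scores of 60 to 262. Id2 had 12 with 72 h scores of 35 to 235, Rbpj 8 with 60 to 241, Prdm1, which encodes BLIMP-1, 6 with 44 to 189, Ptger4, a prostaglandin E2 receptor gene, 5 with 52 to 180, Runx1 4 with 63 to 203 and Bhlhe40 4 with 47 to 144. Il1r2, the decoy receptor of IL-1, had 2, with 107 and 120.

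Stable gains were also present at genes of other states. Among the naive genes Ets1 had 11 of the 33 and Btg1, an antiproliferative gene, 6, while Lef1, Foxp1 and Bach2 had 1 each and Tcf7, Ccr7, Il7r and Klf2 none. The Bach2 region scored 116 at 48 h and 237 at 72 h, and the Lef1 region is the only stable gain beside 17 naive-only regions. In the activation list, Icos followed Myc with 10, the strongest at 100 and 249. That Icos region lay 211 bp from a naive peak. Nfkb1 had 6, and Il2 had 2, of which the region 2.3 kb upstream scored 53 and 207. Cd44 had 3, the strongest at 216 and 246.

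Single regions of high score were present in the remaining lists, those of other cells and tissues included. Jak1, a kinase of the IL-6 receptor complex, had 1 stable gain 11.3 kb upstream with 93 at 48 h and 314 at 72 h, and a region 5.1 kb upstream of Il6st, the signalling chain of that receptor, scored 128 and 253. Ikzf2, which encodes Helios, had 3, with 72 h scores of 183, 258 and 302. Jun had 5, the strongest at 264 and 288. Stat4, the factor downstream of IL-12, had 1 at 16.6 kb with 102 and 272, the only region between genes nearest to it. Ifng had 4, the strongest 12.8 kb downstream with 125 and 213, beside 12 naive-only regions. Gata3 had 11 at 64.3 to 991.3 kb, all downstream, with 72 h scores up to 188. Il1rl1, the IL-33 receptor gene, had 1 with 107 and 207. Genes that T helper cells are not known for had such regions too. A region 54.5 kb upstream of Neurod1, a neuronal and endocrine factor gene, scored 57 and 238, and 1 of the 2 near Ebf1, a B cell factor gene, scored 70 and 181. Single regions near Cdx2, an intestinal factor gene, and Klra8, an NK cell receptor gene, scored 89 and 156 and 44 and 152. The nearest naive peak lay 253 bp from the Cdx2 region and 532 bp from the Neurod1 region. It lay 3748 bp from this Ebf1 region and 33410 bp from the Klra8 region. The median 72 h score was 156 over the 3 stable gains at genes of unrelated tissues and 78.5 over the 38 at Th17 lineage genes.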

How the data were processed

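ATAC-seq peak lists of 3 groups (naive, Th17 48h, Th17 72h; 2 libraries each by the labels, 1 list per group) were analysed. Per the submitters' processing notes, the authors used MACS2 2.2.6, deepTools, Bowtie2 2.3.4.1 and SAMtools 1.9 with GRCm38 (mm10). Depth is unknown. The peak threshold, filters, read shift and any pooling of libraries were not given in the sources used here. Per the labels' protocols, 10000 cells were tagmented and products of 150 to 350, a size with no unit in the labels, were purified. The deposited 48 h and 72 h lists hold a score per peak, and the naive list holds none. An empty line of the naive list (1 line) was dropped. Peaks were merged and placed with Python 3.11.15, pandas 2.3.3 and SciPy 1.17.1, and the steps were tested on simulated data. Genes came from RefSeq GRCm38.p6 (21900 protein-coding). A gap is the number of bases between a region and the nearest gene body, and a score is that of the highest peak in the region. Shares have exact Clopper-Pearson intervals and medians order-statistic intervals, both at 95%. They cover counting error only and treat regions, or windows in the word counts, as independent.

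The members, lists and words were chosen with earlier results of these data known. By the rule for names, the text gives the 10 regions of highest 72 h score, the 5 with the highest 48 h score, the 5 widest, the 5 farthest from a gene, the 3 nearest a naive peak and those with the highest 72 h score in each list. Named genes were the 10 nearest to the most stable gains, with ties, and named chains the 8 with the most members, with ties broken by the summed 72 h score. The sequences, the genes without naive-only regions, the counts at list genes outside that rule and the Il17a chain were singled out after their values were seen. Sequence outside the RefSeq promoter and microRNA tables was not used here, and a few genes are not reported here.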

Additional observations from a re-analysis of the deposited data

How the results depend on the processing

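The number of stable gains between genes stayed within 1.5 times of 4325 when peaks were merged only on sharing 50% of the shorter peak, when naive peaks within 500 bp counted as present, with equal numbers of peaks per list, with a distance of 5 kb from gene ends and with genes of every kind. It was the same by construction when the 48 h and 72 h peaks had to share bases. It fell to 1738 with only 48 h and 72 h peaks at or above the median score and to 1914 when narrower peaks than the median of their list were dropped, and the count at Th17 lineage genes fell from 38 to 16 and 15. The median 72 h score was 148 with the score limit, 139.5 with the width limit and 104 with equal numbers of the widest peaks. The score limit leaves out weak peaks by construction. The width and equal-number settings also drop naive peaks, so a region can become a stable gain by losing its naive peak. Stable gains were 15.4% of all regions between genes with the width limit and 18.1% with equal numbers. The cause of the higher scores in these 2 settings was not tested. The median gap was 28354.5 bp with the score limit and 33356 bp at over 5 kb from gene ends. With links of 10 kb and 50 kb, 27.7% and 54.2% of stable gains lay in chains. A naive peak lay within 5 kb of 29.97%. Under the score limit, stable gains were 24.6% of regions at Th17 lineage genes, 4.67% at naive genes and 8.07% of all regions between genes. The naive list, which has no scores, was left whole under this limit, so all its peaks still count in these shares. The AP-1 word was in 26 of 59 windows with at least 1 bp in a stable gain (44.1%, 31.2 to 57.6%). It was in 7 of 16 windows with at least 250 bp (43.8%, 19.8 to 70.1%). Both settings were chosen after seeing the data. The interval at 250 bp overlapped that of the naive-only windows counted above (8.29 to 28.5%). It lay above that of the constant windows counted above (7.73 to 15.5%). The interval at 1 bp lay above both. Word counts in windows at all regions, which need a genome, were not run. No paired analysis was possible because 1 list per group was analysed, and for the same reason no replicate could be left out.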
